A study of Drosophila melanogaster with 5 samples.

Results

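Some open regions of the Drosophila genome are called both in the midline of the nervous system and in the embryo as a whole, and stand by themselves, with no other called region nearby. These lone shared pairs are described here. A lone pair is 1 midline peak and 1 embryo peak that overlap by at least 1 bp, each overlapping only the other, with no edge of any further peak of either list within 5000 bp. The rule was met by 700 pairs, which hold 1400 of the 20000 peaks in all. They make up 13.5% of the 5176 one-to-one pairs, in which each peak overlaps only the other, and 12.4% of the 5634 shared pairs matched by their largest overlap. The members were chosen by the measured positions of the peaks in both lists, which depend on the peaks called, so every value below is a description of these lists and no test was made.

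Open chromatin marks DNA that is not wrapped tightly around nucleosomes. In FAIRE-seq, crosslinked and sheared chromatin is extracted with phenol, and the DNA that stays free in the aqueous phase is sequenced. Promoters, enhancers and insulators are typical sources of such DNA. In flies, genes that control development are known for long regulatory regions with many enhancers, whereas promoters of genes used in every cell are open in most tissues. Midline cells are the neurons, glia and precursors at the middle of the ventral nerve cord, and their fate depends on the transcription factor Single-minded.

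The midline peaks came from 2 libraries of cells sorted by their GFP from embryos of the strain sim3.7-Gal4 UAS-mCD8::GFP, in which a driver made with single-minded DNA puts a membrane-bound GFP on the cells. The embryo peaks came from 2 libraries of whole OregonR embryos, where midline cells are few among many other cell types. Both groups were 6 to 8 hours old, collected over 2 hours and kept at 25 °C, and chromatin was sheared to between 500 bp and 2 kb. Sorted cells were fixed for 5 minutes after homogenisation and sorting, and whole embryos for 10 minutes before homogenisation. The groups therefore differ in strain, transgenes, sorting and fixation as well as in cell type, and these cannot be told apart. A further library of genomic DNA, from adult virgin females of the strain y;cn,bw,sp, was not analysed here. The labelled cell type was not checked against marker genes, since no annotation of the dm3 build was used.

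Each deposited list held 10000 peaks, the highest of those called on the pooled replicates of a group. Read depth is unknown, and there is no spread between replicates. The authors' score per peak, a whole number on a scale the files do not state, had a range of 44 to 1009 for midline peaks and of 70 to 1645 for embryo peaks, and was used only to rank peaks within a list. Rank 1 is the highest score, and tied peaks share a mean rank. Of all peaks, 60.9% of the midline list and 56.6% of the embryo list overlapped a peak of the other. Intervals in parentheses are exact 95% intervals, from the binomial distribution for shares and from order statistics for medians. They cover counting error only and treat pairs as independent.

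The peaks of lone pairs were narrower at the median than those of other one-to-one pairs. The median midline peak of a lone pair spanned 270.5 bp (261 to 278 bp), with quartiles of 217 and 349.5 bp. The median embryo peak spanned 356.5 bp (344 to 367 bp), with quartiles of 280 and 463.5 bp. In 548 of the 700 pairs (78.3%, 75.0 to 81.3%) both peaks were under 500 bp, and in 11 pairs at least 1 peak reached 1000 bp. In the other 4476 one-to-one pairs, which have a further peak within 5000 bp and are called accompanied pairs below, the median widths were 325 bp in the midline list (318 to 329 bp) and 415.5 bp in the embryo list (409 to 421 bp). Both peaks were under 500 bp in 62.5% of the accompanied pairs. The median lone peak was thus 0.832 times as wide as the accompanied one in the midline list and 0.858 times in the embryo list. Set beside all peaks, with medians of 275 bp in the midline and 329 bp in the embryo list, lone pairs had midline peaks of about the usual width and embryo peaks above it.

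Lone pairs lay above the middle of both lists in strength, and below the accompanied pairs. The median rank of a lone pair was 3902 in the midline list (3567 to 4218) and 3834 in the embryo list (3600 to 4123). The median scores were 121.5 and 203, against 95 and 154 over the whole lists. Accompanied pairs ranked higher, with medians of 3241 (3141.5 to 3362.5) in the midline list and 3199.5 (3092.5 to 3321.5) in the embryo list. Shared pairs in which a peak overlapped several peaks, 458 in all, ranked higher still, at medians of 2404.5 and 1691.

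Few lone pairs reached the top of both lists. In 27 of the 700 (3.86%, 2.56 to 5.56%) both peaks ranked within the first 1000, against 425 of 4476 accompanied pairs (9.50%, 8.65 to 10.4%). Within the first 500 of both lists stood 9 lone pairs (1.29%, 0.59 to 2.43%) and 193 accompanied pairs (4.31%, 3.74 to 4.95%). At the other end, 144 lone pairs (20.6%, 17.6 to 23.8%) and 750 accompanied pairs (16.8%, 15.7 to 17.9%) ranked below 5000 in both. Read by rank, 10.7% (9.19 to 12.3%) of one-to-one pairs within the first 2000 midline ranks were alone, and between 13.6 and 16.5% in the 4 lower classes of 2000 ranks. In the embryo list the share was 9.46% (8.07 to 11.0%) in the first 2000 ranks and between 14.6 and 16.0% in the 4 lower classes. The lower share of lone pairs was thus found in the first 2000 ranks of each list. The intervals of the 4 lower classes overlapped each other in both lists, and in the midline list that of ranks 2001 to 4000 (11.8 to 15.5%) also met the interval of the first class.

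Width falls with rank in both classes, so the widths were set side by side at like rank. Among midline peaks ranked 1 to 2000, lone pairs had a median width of 328.5 bp and accompanied pairs 426 bp. For ranks 2001 to 4000 the medians were 277 and 335 bp, and for ranks 4001 to 6000 they were 247 and 279 bp. For ranks 8001 to 10000 they were 197 and 194 bp, so the gap closed there. Embryo peaks ranked 1 to 2000 had medians of 480 bp in lone and 550 bp in accompanied pairs, and those ranked 2001 to 4000 had 363 and 414 bp. Embryo peaks ranked 8001 to 10000 again differed little, with 259.5 and 264 bp. The median lone peak was therefore narrower than the accompanied one in the 4 upper rank classes of both lists. Within lone pairs, score and width were related across peaks with a Spearman correlation of 0.51 in the midline and 0.55 in the embryo list (n = 700), against 0.58 and 0.60 over accompanied pairs.

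**Figure D1:**
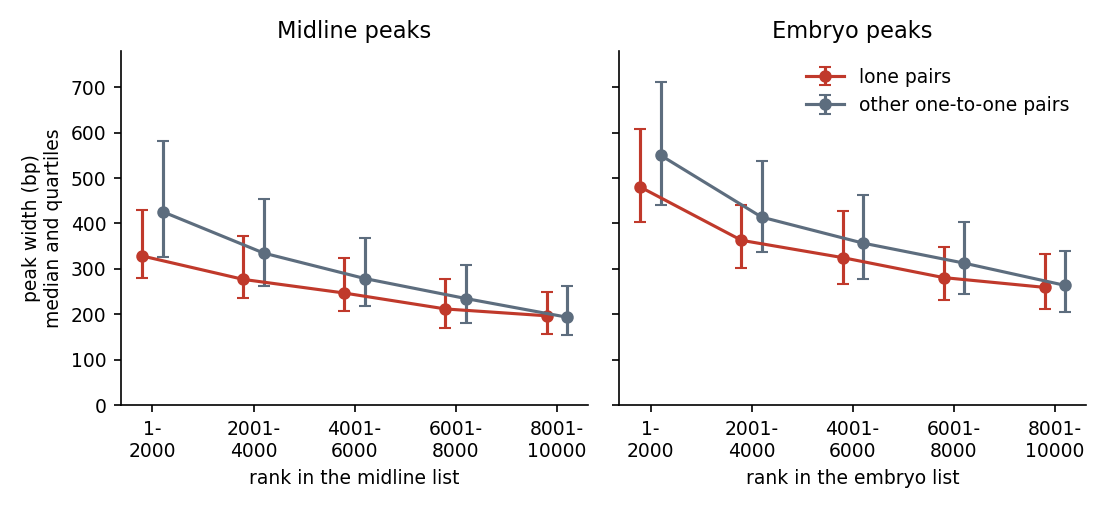
Peak width in bp (median and quartiles) by rank of the peak in the midline list (left) and embryo list (right), for 700 lone pairs and 4476 accompanied one-to-one pairs. In midline ranks 1 to 2000 the medians are 328.5 bp for lone and 426 bp for accompanied pairs, and in ranks 8001 to 10000 they are 197 and 194 bp.

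Ranks in the 2 lists were related among lone pairs. The Spearman correlation between midline and embryo rank was 0.50 and the Pearson correlation 0.47, across 700 pairs that come from the same pooled libraries and are not replicates. Over accompanied pairs the values were 0.59 and 0.54. The median difference between the ranks of a lone pair, sign ignored, was 1658.5 (1478.5 to 1800), and that of an accompanied pair 1407.75 (1349 to 1478). The ranks were within 1000 of each other in 237 lone pairs (33.9%) and 39.3% of accompanied pairs, and over 4000 apart in 95 lone pairs (13.6%) and 12.8% of accompanied pairs. The midline rank was the higher in 350 lone pairs and the embryo rank in 350, against 2235 and 2240 accompanied pairs. Ranks are set within each list, so these counts cannot show which group was the more open.

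At like rank, the match was looser in some classes and closer in others. In midline ranks 1 to 2000 the median difference between the ranks of a pair was 1061 for lone and 673 for accompanied pairs. In the 4 lower midline classes it was the smaller for lone pairs, with 1447 against 1462 in ranks 2001 to 4000 and 1714.5 against 2055 in ranks 4001 to 6000. By embryo rank it was the larger for lone pairs in 4 of 5 classes, with 899.5 against 712.5 in ranks 1 to 2000, and the smaller in ranks 6001 to 8000, with 2028 against 2198. Lone midline peaks ranked 1 to 2000 had partners at a median embryo rank of 2022 (quartiles 994.5 and 3392), whereas accompanied midline peaks of those ranks had partners at 1345 (562 and 2542). Lone embryo peaks ranked 1 to 2000 had partners at a median midline rank of 1752.5, and accompanied ones at 1330.5. In midline ranks 4001 to 6000 the order was the other way, with partners at 4179.25 for lone and 4470 for accompanied pairs. In midline ranks 8001 to 10000 both medians were 5805. Lone pairs were fewer at the very top of the first class (above), and the part of this in the result was not tested.

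**Figure D2:**
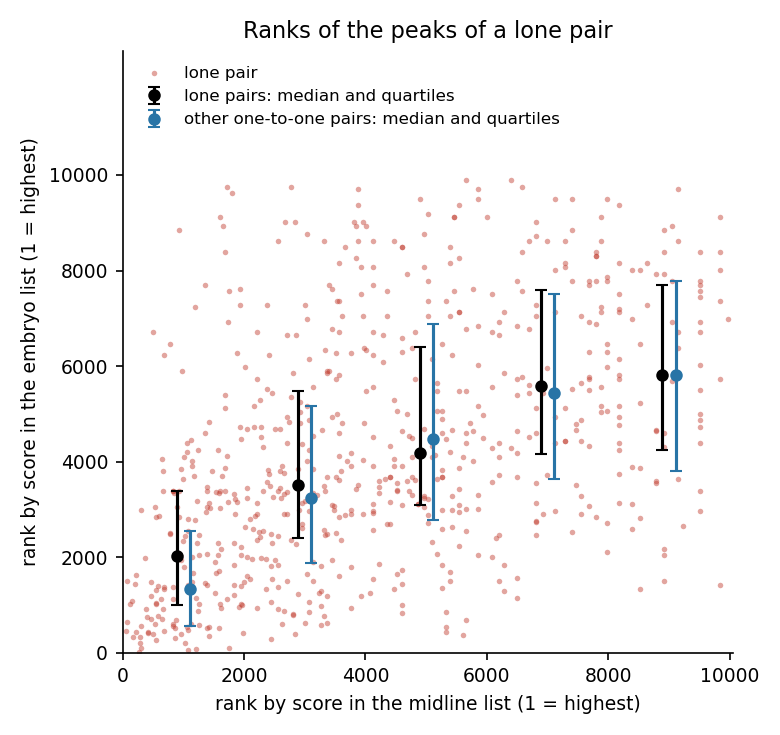
Rank by score in the embryo list against rank in the midline list for the 700 lone pairs (red points, rank 1 is the highest score), with the median and quartiles of the embryo rank by classes of 2000 midline ranks for lone pairs (black) and accompanied one-to-one pairs (blue). In the first class the median embryo rank is 2022 for lone and 1345 for accompanied pairs, and in the last it is 5805 for both.

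The peaks of a lone pair lay closely on each other. Their midpoints were a median of 29.25 bp apart (26.5 to 33 bp), within 50 bp in 502 pairs (71.7%, 68.2 to 75.0%) and over 250 bp in 8. The midline peak lay wholly inside the embryo peak in 397 pairs (56.7%, 53.0 to 60.4%), and the embryo peak inside the midline peak in 66 (9.43%). The remaining 237 pairs were staggered, and 0 had the same interval in both lists. The embryo peak was the wider in 549 pairs (78.4%, 75.2 to 81.4%) and the midline peak in 147. The median embryo peak was 1.26 times as wide as its midline partner (1.23 to 1.30), against 1.22 times (1.21 to 1.24) in accompanied pairs.

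A lone midline peak was covered by its partner over a median of 100% of its length, and the embryo peak over 76.0% (74.4 to 78.2%). Accompanied pairs had 100% and 78.6% (77.8 to 79.3%), and a median distance between midpoints of 31.5 bp (30.5 to 33 bp). At least 50% of both peaks was overlapped in 604 lone pairs (86.3%, 83.5 to 88.7%) and in 88.0% (87.0 to 88.9%) of accompanied pairs. Position within the pair thus differed little between the classes. Just 3 lone pairs shared under 50 bp.

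The nearest further peak of a lone pair was a median of 8.00 kb away (quartiles 6.11 and 11.6 kb). It was an embryo peak in 428 pairs (61.1%) and a midline peak in 271, and 1 pair had both at the same distance. Accompanied pairs gave 62.2% for the embryo list. At the median, though, lone pairs were 8.93 kb from the nearest further midline peak and 9.51 kb from the nearest further embryo peak. Distances run to the nearest edge, and the part of the wider embryo peaks in the 61.1% was not tested. Beyond 10 kb stood 242 lone pairs (34.6%), beyond 20 kb 60 (8.57%) and beyond 50 kb 1. Width and rank went down with distance over most of the range, and the change did not start at the threshold of 5000 bp. One-to-one pairs with a neighbour within 500 bp had median ranks of 3029.5 (midline) and 2885 (embryo), and those 2000 to 5000 bp from one had 3580.75 and 3742.5. Lone pairs between 5000 and 7500 bp had 3753.5 and 3600, and those between 10000 and 20000 bp 4130.5 and 4180.75.

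The pairs farthest from others did not continue this order of median ranks in either list. Their intervals overlapped those of the pairs between 10000 and 20000 bp (midline 3567 to 4819.5, embryo 3719.5 to 4667.5). The 60 pairs over 20 kb from any further peak had a median midline rank of 3232 (2211.5 to 3953), close to that of accompanied pairs, and a median embryo rank of 3838.25 (3144.5 to 5391). The median width was 283 bp (249 to 304 bp) for their midline peaks and 340 bp (314 to 372 bp) for their embryo peaks. In these 60 pairs the midline peak covered 84.4% of the embryo peak at the median (78.6 to 87.8%), above the 75.2% (71.9 to 79.7%) of the 182 pairs between 10000 and 20000 bp.

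**Figure D3:**
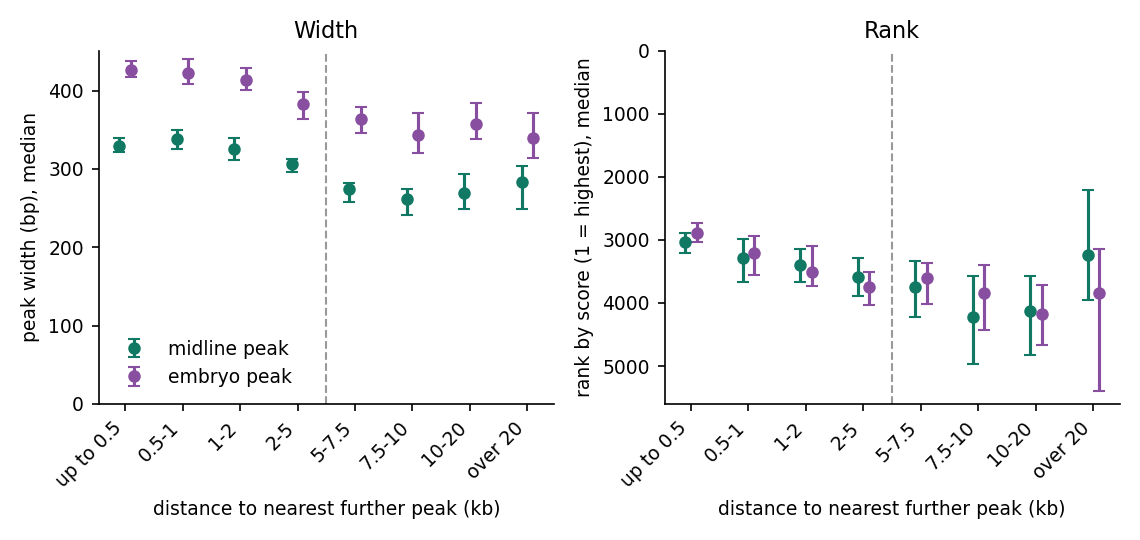
Median peak width in bp (left) and median rank by score (right, with rank 1 at the top) of one-to-one pairs by the distance in kb to the nearest further peak of either list, with exact 95% intervals. Pairs right of the dashed line are the 700 lone pairs. Midline width is 329 bp in the nearest class and 275 bp just beyond 5 kb, and the last class, with 60 pairs, has a median midline rank of 3232.

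The members at the threshold give an idea of how sharp it is. Just inside it, the nearest further peak was 5003 bp away from a pair on 3R (12898226 to 12898727 in dm3, midline rank 6813.5, embryo rank 2461.5), 5004 bp from a pair on the X (17059876 to 17060169, ranks 9511 and 7788) and 5007 bp from a pair on 3L (8505557 to 8505912, ranks 2809.5 and 5855). Just outside it, 3 pairs had their neighbour at 4972 bp. A pair on 2R at 4810098 to 4810503 (ranks 1394 and 2077.5) and a pair on 2R at 4815475 to 4815965 (ranks 1689 and 1588.5) are that distance from each other. The third is on 3R at 166824 to 167240 (ranks 943 and 3260.5).

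The strongest lone pairs, by the sum of both ranks, lay on 4 different arms. The first was at 20120753 to 20121470 of 2L, and nothing further was called within 22.7 kb of it. Its embryo peak had a score of 1254 and ranked 27, and its midline peak a score of 454 and rank 261. The second, at 8544469 to 8545344 of the X, had ranks of 299 in the midline and 91 in the embryo list, and its nearest neighbour was 5800 bp away. Its peaks were 792 and 876 bp wide, with midpoints 7 bp apart.

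The third was on 3R at 12589252 to 12590216, with ranks of 284.5 and 213, and its midline peak of 461 bp lay off the centre of an embryo peak of 965 bp, with midpoints 212 bp apart. The fourth, on 3L at 13106826 to 13107647, had ranks of 177.5 in the midline and 321 in the embryo list. The fifth, also on 3L at 6393337 to 6393806, had the highest midline rank of the 5, at 54 with a score of 642, an embryo rank of 453, and midpoints 2 bp apart. In the first 3 the embryo rank was the higher and in the last 2 the midline rank. No gene is named at these places, since no dm3 annotation was used.

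Some lone pairs were strong in 1 list and near the bottom of the other. The largest gap in favour of the midline was on 3R at 9784383 to 9784663, where the midline peak ranked 1716 (score 218) and the embryo peak 9758.5 (score 72, against a list minimum of 70). Next came 2 pairs on the X. The pair at 20201325 to 20201685 had a midline rank of 924 and an embryo rank of 8846.5, and that at 20611172 to 20611587 had 1796.5 and 9617. In the last of these the midline peak was 416 bp wide and the embryo peak 159 bp, the reverse of the usual order of widths. The embryo scores of these 3 pairs (72, 82 and 74) lie just above the lower limit of that list.

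In favour of the embryo, the largest gap was on the X at 8723442 to 8723864, where the midline peak ranked 9847.5 (score 45, against a list minimum of 44) and the embryo peak 1416 (score 442). The next were on 2L at 11014096 to 11014444, with a midline rank of 8921.5 and an embryo rank of 1495, and on 3R at 2535354 to 2535828, with 8516 and 1345. In all 3 the midline peak lay wholly within the embryo peak. Their midpoints were 4, 12 and 42 bp apart, so the large difference in rank came with nearly the same position.

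The most isolated pair was on 3L at 9961374 to 9961682, 59.8 kb from the nearest further peak, with ranks of 5421.5 in the midline and 6236 in the embryo list and midpoints 1 bp apart. The next were on 2L at 22260971 to 22261389 (47.4 kb, ranks 6279 and 1830) and on 3L at 19998103 to 19998443 (46.2 kb, ranks 597.5 and 2870). The widest lone pair lay on the X at 16110460 to 16111978, with a midline peak of 1334 bp and an embryo peak of 1519 bp, ranked 1035 and 208. The narrowest lay on 2R at 4612385 to 4612550, with 166 and 136 bp, ranked 9847.5 and 8393.5. The 3 most isolated pairs thus had midline ranks from 597.5 to 6279 and embryo ranks from 1830 to 6236.

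Lone pairs were spread over all 5 arms. There were 148 on 2L (21.1%, 18.2 to 24.4%), 122 on 2R (17.4%, 14.7 to 20.4%), 147 on 3L (21.0%, 18.0 to 24.2%), 153 on 3R (21.9%, 18.8 to 25.1%) and 130 on the X (18.6%, 15.8 to 21.7%). Accompanied pairs had 16.2% (15.1 to 17.3%) on 2L, 20.4% (19.3 to 21.7%) on 2R, 20.9% on 3L, 24.6% (23.4 to 25.9%) on 3R and 17.8% on the X. The 2L share of lone pairs was 4.97 points above that of accompanied pairs, with intervals that did not overlap, whereas those of the other 4 arms overlapped. Put as a share of the one-to-one pairs of an arm, 17.0% (14.5 to 19.6%) were alone on 2L and 11.8% (9.87 to 13.9%) on 2R, with 3L, 3R and the X between them at 13.6, 12.2 and 14.0%.

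Per length of arm, lone pairs were even. Their density ran from 5.48 per Mb on 3R to 6.44 per Mb on 2L, over the span that peaks cover. All one-to-one pairs ran from 37.9 per Mb on 2L to 49.1 per Mb on 2R, and peaks of both lists together from 154.5 per Mb on 2L to 187.9 per Mb on 2R. The arm with the highest share of its one-to-one pairs alone was therefore the one with the fewest peaks per Mb, and the X, with 155.3 peaks per Mb, came next in both. Crowding enters the rule itself, and its part in the arm shares was not tested.

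**Figure D4:**
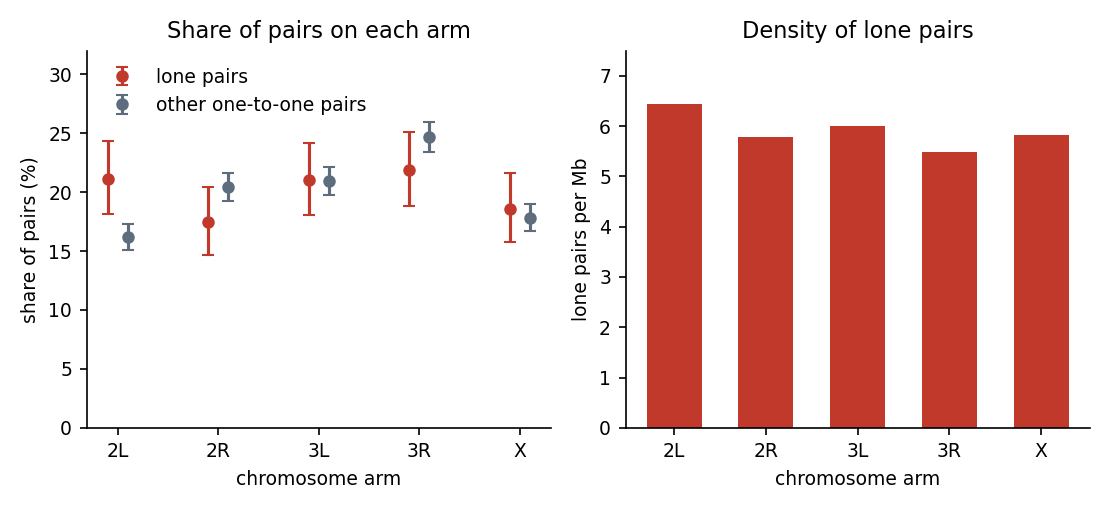
Left, share of pairs in % on each chromosome arm for 700 lone and 4476 accompanied one-to-one pairs, with exact 95% intervals. Right, lone pairs per Mb of the span that peaks cover. On 2L the shares are 21.1% for lone and 16.2% for accompanied pairs, and the density ranges from 5.48 to 6.44 per Mb.

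Rank and width varied between the arms. The median midline rank of lone pairs was 3269 on 3R and 4462.5 on 3L, and the median embryo rank was between 3560.5 on 2L and 4593.5 on 3L. The weakest median of each list was thus on 3L, but in the midline list 2L was close to it, at 4377. In accompanied pairs the median midline rank ran from 2950 on 3R to 3843.5 on the X. On 2R, 74 of 122 lone pairs (60.7%) ranked higher in the midline list, and on the X 59 of 130 (45.4%), against 49.5 and 44.7% of accompanied pairs. Midline width of lone pairs had medians from 258 bp on the X to 285 bp on 3R. In each of the 5 arms, lone pairs had lower median widths than accompanied pairs in both lists and weaker median ranks in both. The Spearman correlation of ranks was below that of accompanied pairs in each arm, with 0.39 and 0.54 on the X as the widest gap and 0.61 and 0.64 on 2R as the smallest.

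Along the arms, the order of lone pairs is given as counts only. Lone pairs hold 7% of the midline peaks, and no like count was made for other regions. Whether lone pairs cluster was not tested. Neighbouring lone pairs of an arm were a median of 101.4 kb apart (quartiles 38.8 and 222.2 kb), and the longest stretch without one was 1306 kb. In 481 of the 700 (68.7%) the next called region on both sides was something other than a lone pair. There were 92 runs of 2 lone pairs in succession, 9 of 3 and 2 of 4. The runs of 4 were on 2R at 9733547 to 9813343 and on 3L at 8095322 to 8121392, the second within 26.1 kb. With the span of each arm cut into 5 equal parts, the share of one-to-one pairs that were alone was between 11.3 and 14.9% over all arms together. Single parts ran from 9.17%, on the X, to 25.2%, in the middle of 2L. The latter rests on 35 lone and 104 accompanied pairs.

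Standing alone was more common outside the shared class. Of 3911 midline-only peaks 721 (18.4%) and of 4342 embryo-only peaks 1142 (26.3%) also had no further edge within 5000 bp. Counting each lone pair once, 2563 regions stood alone, of which 27.3% (25.6 to 29.1%) were shared, 28.1% midline-only and 44.6% embryo-only. The lone list-only peaks were weaker and narrower, with a median rank of 7677.5 and width of 203 bp in the midline list and 7275 and 199 bp in the embryo list.

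At like rank, peaks that stand alone were shared about as often as all peaks in the upper midline list and less often further down. Among midline peaks ranked 1 to 2000 that stood alone, 92.5% (87.7 to 95.8%) were in a lone pair, and 94.5% of all midline peaks of those ranks were shared. For ranks 4001 to 6000 the values were 53.8% (47.9 to 59.6%) and 59.7%, and for ranks 8001 to 10000 18.7% (15.0 to 22.9%) and 28.3%. In the embryo list, lone peaks ranked 1 to 2000 were shared in 89.0% (83.3 to 93.2%) and all peaks of those ranks in 94.0%, and in ranks 4001 to 6000 the values were 38.8% (34.0 to 43.8%) and 50.6%. All peaks include those that overlap several, which lone pairs leave out by rule.

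**Figure D5:**
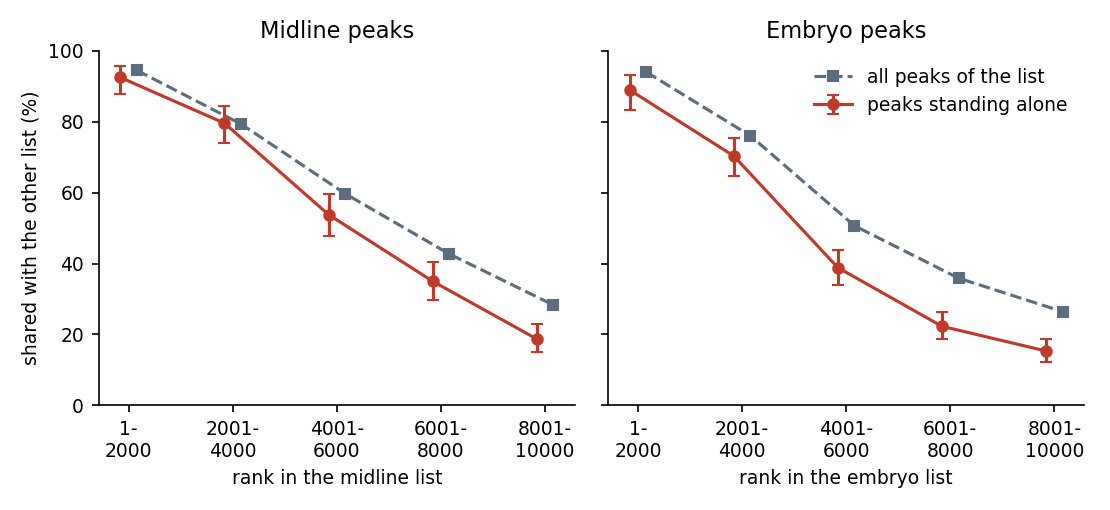
Share in % of peaks shared with the other list by rank in the midline (left) and embryo list (right), for peaks standing alone (red, exact 95% intervals) and all peaks of the list (grey). Among embryo peaks ranked 4001 to 6000, 38.8% of lone peaks and 50.6% of all peaks are shared.

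Between most lone pairs and the next kept peaks there may be weaker calls that the lists leave out. Whether these lie within 5000 bp of the pair is not known. Each peak name carries a number that grows along the arms, with gaps, up to 15189 in the midline and 17552 in the embryo list. If they were given before the 10000 highest peaks were kept, which the files do not state, a skipped number is a call that was left out between neighbouring kept peaks, at an unknown position. Of 697 lone pairs with kept peaks on both sides in both lists, 465 (66.7%, 63.1 to 70.2%) had a skipped number beside them in both lists, and 36 (5.16%, 3.64 to 7.08%) had none in either. On that condition, no further call lies between these 36 pairs and the next kept peak, and they are alone in the longer lists as well. Accompanied pairs had none in 23.1% (21.9 to 24.4%), but the stretch between their flanking peaks is shorter, with a median of 8.66 kb free sequence in the midline list against 34.3 kb for lone pairs. Per 100 kb of that free sequence, the midline list skipped 3.45 numbers beside lone and 5.07 beside accompanied pairs, and the embryo list 5.51 and 8.14. On the same condition, the stretches around lone pairs were sparser in left-out calls too, per length.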

How the data were processed

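The submitters' processing notes name CASAVA 1.8.2, Bowtie2, MACS2, SAMtools and bedtools, and the dm3 build, for the 5 libraries. What each tool did, how peaks were set and how the input was used is not given in the sources used here. The deposited files are 2 peak lists, called by the authors on pooled replicates. The deposited score is a whole number per peak of unstated scale, so only ranks within a list were compared. The lists hold no counts and no values per replicate, so depth is unknown. There were 0 unused columns with values of a sample.

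Starts were converted to 1-based positions. Distance is the difference between facing edges of the outer limits of a pair and a further peak. Shared pairs were matched by largest overlap, each peak used once. Pair finding was tested on simulated lists. No p-value was computed, since the rule used these positions. The named pairs are the 5 with the lowest sum of ranks, the 3 with the largest rank difference in each direction, the 3 most isolated, the 3 on each side of the threshold, the widest and the narrowest. The members, comparisons and this rule were chosen with earlier results of these data known. The supplied gene table is on another build (Release 6), so genes, distances to gene starts and sequences were not used. Python 3.11.15, numpy 2.4.6, scipy 1.17.1, pandas 2.3.3 and matplotlib 3.10.9 were used. The labels name no batch.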

Additional observations from a re-analysis of the deposited data

How the results depend on the processing

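The count of 700 lone pairs was 604 with a reciprocal overlap of 50%, 694 with midpoints within 250 bp and 684 with peaks of 500 bp. Among the 5000 highest-scoring peaks of each list it was 815. Just 332 of the 700 ranked within 5000 in both lists, so most of the 815 do not stand alone in the full lists. The count was 1610 at 2000 bp, 242 at 10000 bp, 60 at 20000 bp, and 36 with no skipped number beside the pair. At each of these distances the accompanied pairs were redrawn too, as all other one-to-one pairs. At 20000 bp they thus include most of the 700 lone pairs. With a reciprocal overlap of 50% and among the 5000 highest, both classes were likewise drawn anew. Lone peaks were narrower than accompanied ones in both lists under all 17 alternatives run. The midline width ratio (0.832) became 0.870, 0.869 and 0.900 at those 3 distances, 0.881 and 0.930 in classes 3 and 4 of mean rank (of 4 equal classes from strong to weak), and 0.856 without 2R. The embryo ratio (0.858) became 0.912 with no skipped number, 0.924 with that filter on both classes, 0.818 against all other shared pairs, and 0.929, 0.902 and 0.960 in classes 2, 3 and 4 of mean rank.

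The median embryo rank of lone pairs was the weaker under all 14 alternatives, by 341.25 with no skipped number and by 1032.75 ranked by width, against 634.5. In the midline list the difference of 661 ranks, lone minus accompanied, became 168.5 with no skipped number and 1496.25 by width. Among the 5000 highest it was 242, but ranks end at 5000 there, so the values are on another scale. It reversed to -107.5 at 20000 bp, where 60 pairs remain and the accompanied pairs are redrawn. The median of those 60 was 3232, against 3241 for the 4476 accompanied pairs of the main rule. The rank correlation over lone pairs (0.50) was 0.61 with no skipped number, 0.56 by width, 0.61 within 2R and 0.39 within the X. Its difference from accompanied pairs (-0.092) was -0.035 at 20000 bp, -0.029 within 2R, -0.15 within the X, and reversed to 0.013 with no skipped number, over 36 pairs. That filter was applied to lone pairs alone. With it on accompanied pairs too (1036 pairs), an alternative chosen after seeing the data, the correlation difference was -0.017 and the rank differences were 340 in the midline and 555.75 in the embryo list. The cause was not tested.

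The excess on 2L (4.97 points) was 13.3 at 20000 bp and the deficit on 2R (-3.01) was -13.5 there. The difference on 3R (-2.79) was 0.75 at 2000 bp, 0.74 at 20000 bp, 0.92 among the 5000 highest and -7.98 with no skipped number, where that on the X (0.74) was 7.17. The difference on 3L (0.09) was -3.82 with the filter on both classes. The overlapped share of the embryo peak (76.0%) was 78.4% at 10000 bp, 84.4% at 20000 bp, 79.4% with a reciprocal overlap of 50% and 78.2% among the 5000 highest. No paired analysis was possible because the replicates were pooled before peaks were called, so no replicate could be left out either. Distances to gene starts need an annotation of dm3 and were left out. Depth is unknown, so a missing neighbour may be undetected.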
